A study of Homo sapiens with 6 samples.

Results

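The genes described here are 10 imprinted genes that lie outside the imprinted region 11p15: PEG10, SGCE, MEST, MEG3, DLK1, PEG3, GRB10, ZDBF2, PLAGL1 and NNAT. They were taken as every probe set annotated to one of these symbols alone, which gave 27 probe sets for 10 of the 19775 genes that have a probe set of their own. The values come from 6 samples of HEK293, a human embryonic kidney line. BAHD1 siRNA cells (3 biological replicates) were set against control siRNA cells (3 biological replicates). Both groups were transfected for 72 h with lipofectamine, with no other agent named, and one array was read per sample from total RNA. BAHD1 is a chromatin protein with a known role in silent heterochromatin, and the comparison asks which transcripts differ when its siRNA is present.

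An imprinted gene is expressed mainly from the copy inherited from one parent. At many imprinted loci DNA methylation laid down in the germ line marks the parental copies differently and is read by zinc finger proteins and their silencing partners. PEG10, SGCE, MEST, DLK1, PEG3, ZDBF2, PLAGL1 and NNAT are known as paternally expressed genes, MEG3 as a maternally expressed long non-coding RNA, and GRB10 as a gene whose expressed parental copy depends on the tissue and the promoter. Many of them are active in the embryo and placenta and are known to affect growth. The arrays give one signal per probe set and do not separate the parental copies. In RNA from whole cultures, a change in the number of cells that express a gene and a change in RNA per cell cannot be told apart.

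Promoter sequences were looked up in RefSeq (GRCh38.p14), where windows from 250 bases before to 50 bases after a transcription start were held for ZDBF2, PLAGL1, GRB10, MEST and MEG3, 20 windows in all. Both windows of ZDBF2 are shown because it was the member that passed a test, and the CpG-richest windows of PLAGL1 and GRB10 because these genes have several starts and several probe sets. Capitals mark CpG dinucleotides, the target of DNA methylation, and each sequence runs 5′ to 3′ on the strand of the gene.
ZDBF2 start 1, chr2:206274413-206274712, plus strand: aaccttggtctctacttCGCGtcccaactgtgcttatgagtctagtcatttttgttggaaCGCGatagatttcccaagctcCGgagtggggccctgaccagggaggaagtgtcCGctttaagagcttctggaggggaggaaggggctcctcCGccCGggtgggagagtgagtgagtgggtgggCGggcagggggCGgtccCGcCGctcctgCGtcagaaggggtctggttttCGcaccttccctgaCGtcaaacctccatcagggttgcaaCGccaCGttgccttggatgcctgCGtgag
ZDBF2 start 2, chr2:206274760-206275059, plus strand: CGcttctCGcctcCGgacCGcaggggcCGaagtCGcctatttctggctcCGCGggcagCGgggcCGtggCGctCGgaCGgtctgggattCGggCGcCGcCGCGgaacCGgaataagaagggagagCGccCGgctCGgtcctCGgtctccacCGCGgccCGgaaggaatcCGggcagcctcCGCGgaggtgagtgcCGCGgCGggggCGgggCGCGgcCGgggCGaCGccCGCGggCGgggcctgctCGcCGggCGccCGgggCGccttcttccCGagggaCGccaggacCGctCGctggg
PLAGL1 start 3, chr6:144008210-144008509, minus strand: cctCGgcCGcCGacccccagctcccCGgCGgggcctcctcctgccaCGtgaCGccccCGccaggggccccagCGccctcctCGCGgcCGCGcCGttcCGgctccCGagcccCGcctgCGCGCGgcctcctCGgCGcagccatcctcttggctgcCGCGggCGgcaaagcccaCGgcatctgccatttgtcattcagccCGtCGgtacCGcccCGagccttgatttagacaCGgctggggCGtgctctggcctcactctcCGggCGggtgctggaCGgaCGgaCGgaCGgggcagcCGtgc
GRB10 start 2, chr7:50792825-50793124, minus strand: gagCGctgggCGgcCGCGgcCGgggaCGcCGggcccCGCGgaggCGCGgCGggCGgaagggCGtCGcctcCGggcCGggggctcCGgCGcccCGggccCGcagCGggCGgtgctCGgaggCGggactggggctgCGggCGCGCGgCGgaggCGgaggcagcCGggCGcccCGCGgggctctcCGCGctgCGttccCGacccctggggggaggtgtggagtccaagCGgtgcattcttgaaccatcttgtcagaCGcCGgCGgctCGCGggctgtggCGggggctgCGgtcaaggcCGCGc
The second ZDBF2 window holds 50 CpG, a count reached by 1.29% of the 35116 RefSeq windows, whereas the first holds 18, reached by 44.5%. The third PLAGL1 window holds 39 CpG and the second GRB10 window 49, counts reached by 8.71% and 1.6% of all windows. The other windows of PLAGL1 range from 2 to 31 CpG and those of GRB10 from 3 to 44. The letters TGCCGC, the core bound by the imprint-maintaining protein ZFP57 when methylated, were searched on both strands. They were present in 10 of the 20 windows and in 16.7% of all windows. The 10 are not all separate sites: the MEG3 windows nearly coincide, pairs of MEST windows overlap, and these hold matches. The letters include a CpG, and the share among windows of like CpG count was not computed. The PLAGL1 window shown has 2 matches, the second ZDBF2 window 1, and the other 2 windows shown have 0. The array values do not say which start a transcript came from.

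A probe set was tested when its signal exceeded the median of all values, 17.9, on 3 or more of the 6 arrays. Of the 27458 that passed, 9 were among the 27 of the imprinted genes: the single ones of ZDBF2 and SGCE, all 4 of GRB10 and all 3 of PLAGL1. The 18 probe sets of PEG10, MEST, MEG3, DLK1, PEG3 and NNAT did not pass. Differences are given as log2(signal + 1) means of BAHD1 siRNA minus control siRNA cells, from limma fits over all kept probe sets. Their p-values were adjusted by Benjamini-Hochberg and called at 0.05. In the first fit all probe sets share a single variance prior; in the second, called the intensity-trend fit, the prior follows the mean signal. An exact permutation test of 3 samples against 3 cannot give a two-sided p below 0.1. A probe set above the filter on the 3 arrays of a single group alone cannot overlap between groups. Such probe sets are part of the share without overlap among all kept probe sets, and their number was not computed.

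The arrays matched each other closely and had a few shared differences. Pairs within a group correlated at r = 0.974 to 0.978 over kept probe sets and pairs across groups at 0.966 to 0.972, with medians of 15.9 to 19.5 signal units per array. BAHD1 itself had signals of 36.6, 46.8 and 41.2 in BAHD1 siRNA cells and 62.9, 55.7 and 46.7 in control siRNA cells, a log2 fold change of -0.40 ± 0.15 (SE) that did not pass (adjusted p = 0.251 in both limma fits). Bacterial poly-A controls, added before labelling, were higher in the BAHD1 siRNA arrays for all 24 probe sets, at a median of 1.49-fold. Of the 18 hybridisation controls 1 was higher, at a median of 0.921-fold. Split into 4 classes by mean signal, 60.9% of the dimmest class of kept probe sets were higher in BAHD1 siRNA arrays and 42.1% of the brightest class. The part of these shifts in the results below was not tested, except through the normalisations named with them. Of 9 HEK293 markers 8 were kept, with L1CAM below the filter. Of their 11 kept probe sets 7 had no overlap between groups, against 25.6% of all, and 4 were called in the intensity-trend fit described above, against 4.45% of all. NEFM (1 of its probe sets) and NEFL (2 of 3), neurofilament genes, were called higher in BAHD1 siRNA cells. VIM, the vimentin gene, was called lower on 1 of its probe sets. The other kept marker probe sets were not called. Of 13 markers of blood, endothelium, fibroblast, liver and muscle, COL1A1 and PECAM1 were kept, 10 were below the filter and 1 had no probe set of its own. The summed signal over the probe sets of these 13 genes was 399 to 526 in BAHD1 siRNA arrays and 369 to 440 in control siRNA arrays.

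None of the 9 tested imprinted probe sets passed in the first fit, which called 0% of all probe sets at the adjusted threshold. At an unadjusted p under 0.05 that fit had 1 of the 9, against 17.6% of all probe sets, and the intensity-trend fit 2 of the 9, against 20.9%. In the intensity-trend fit 1 of the 9 was called, higher in BAHD1 siRNA cells, where 4.45% of all probe sets were called and 2.17% were called higher. None of the 9 was called lower, against 2.28% of all. The groups did not overlap for 3 of the 9, against 25.6% of all kept probe sets: 2 were higher, against 13.4%, and 1 lower, against 12.2%. In all, 4 of the 9 were higher and 5 lower. With each gene represented by its brightest kept probe set, the median log2 fold change over the 4 measured genes was -0.0024, and over all 12529 measured genes it was 0.025.

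ZDBF2, which encodes a zinc finger protein and is named for its DBF4-type zinc finger, rose in BAHD1 siRNA cells in the intensity-trend fit. Its signals were 282.2, 278.3 and 368.4 in BAHD1 siRNA cells, against 206.8, 215.7 and 230.1 in control siRNA cells. All 3 BAHD1 siRNA values lay above all 3 control values, and BAHD1 siRNA replicate 3 stood above the other two. On the log2 scale this was 8.27 ± 0.23 in BAHD1 siRNA cells and 7.77 ± 0.077 in control siRNA cells (SD, n = 3 each), a 1.41-fold level (exact two-sided permutation p = 0.1). The log2 fold change was 0.50, with a 95% interval of 0.26 to 0.74 in the intensity-trend fit (limma, adjusted p = 0.029) and of 0.17 to 0.82 in the first fit (limma, adjusted p = 0.179). The call rested on several arrays: with the intensity-trend fit the adjusted p was 0.115 without BAHD1 siRNA replicate 3 (log2 fold change 0.37), 0.0575 without BAHD1 siRNA replicate 2, 0.0933 without control siRNA replicate 1 and 0.0859 without control siRNA replicate 2. It was 0.0673 with no filter on dim probe sets and 0.0893 with the array medians centred, and in the first fit 0.0362 with a stricter filter. After quantile or cyclic loess normalisation the log2 fold change was 0.51 in each case. The poly-A controls, higher in the BAHD1 siRNA arrays, moved in the same direction, and their part in the ZDBF2 value was not tested.

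**Figure D1:**
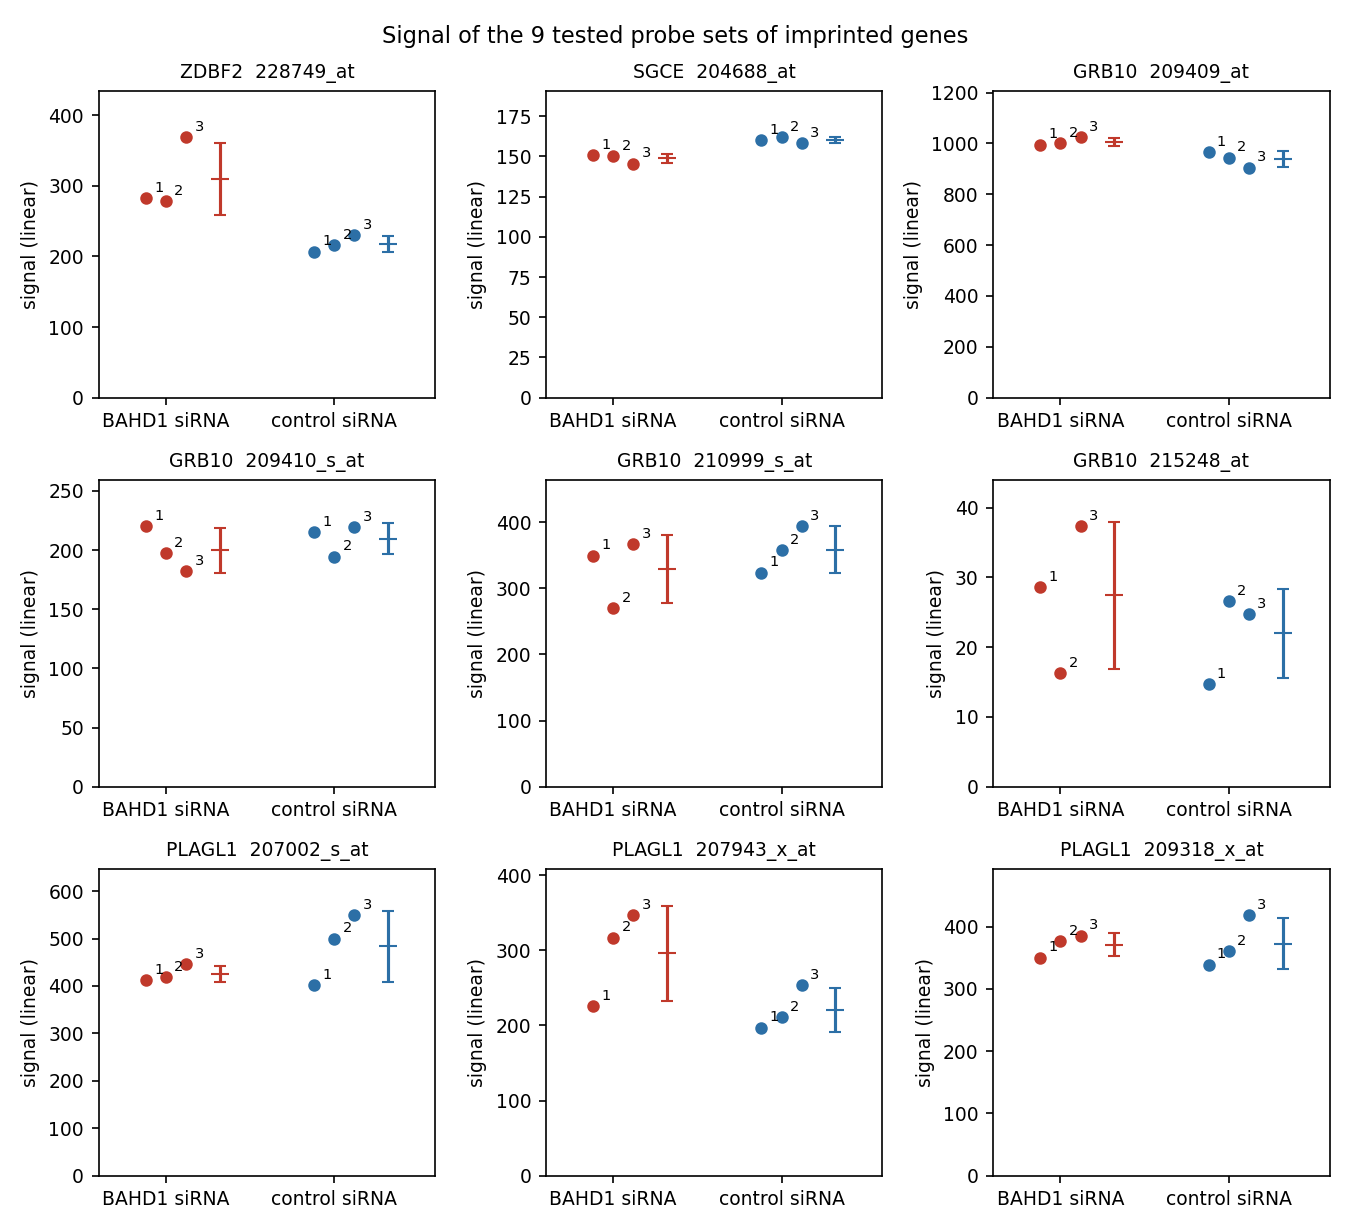
Signal (linear scale, y axis) of the 9 tested imprinted probe sets in each array, BAHD1 siRNA in red and control siRNA in blue, with replicate numbers at the points and mean ± SD beside them. The ZDBF2 groups are apart (278.3 to 368.4 in BAHD1 siRNA cells, 206.8 to 230.1 in control siRNA cells), while the SGCE and first GRB10 panels show small separations and the other panels overlap.

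SGCE encodes epsilon-sarcoglycan, a membrane protein of the dystrophin-associated complex. Its signals were 150.6, 150 and 145.4 in BAHD1 siRNA cells and 160.3, 161.8 and 158.3 in control siRNA cells. The groups did not overlap and the replicates lay close together, but the difference was small, at 92.9% of the control level. The log2 fold change was -0.11 with a 95% interval of -0.29 to 0.076 in the first fit and of -0.32 to 0.11 in the intensity-trend fit (limma, adjusted p = 0.493 and 0.575). Both fits widen the spread of so tight a probe set toward that of others. PEG10, a gene derived from a retrotransposon that lies next to SGCE, is described with the dim genes below.

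GRB10 encodes an adaptor protein that binds insulin and IGF receptors and dampens their signalling. Its brightest probe set, 209409_at, had signals of 995.2, 1000.2 and 1024 in BAHD1 siRNA cells and 965.3, 943.8 and 905.1 in control siRNA cells. These groups did not overlap, with a log2 fold change of 0.10 and a 95% interval of -0.034 to 0.24 in the intensity-trend fit (limma, adjusted p = 0.385, and 0.522 in the first fit). The sign of this value turned with the array medians centred (-0.036), a step that lowers the median of all kept probe sets by 0.14. The other probe sets of GRB10 overlapped between groups: 209410_s_at had -0.072 (95% interval -0.29 to 0.15, intensity-trend fit), 210999_s_at -0.13 (-0.38 to 0.12) and the dim 215248_at 0.27 (-0.50 to 1.04). Leaving out single arrays moved 209410_s_at between -0.14, with BAHD1 siRNA replicate 1 left out, and -0.0070, with BAHD1 siRNA replicate 3 left out. It moved 210999_s_at between -0.22 and 0.0019 (without BAHD1 siRNA replicate 2). It moved 215248_at between 0.018 (without control siRNA replicate 1) and 0.59 (without BAHD1 siRNA replicate 2).

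PLAGL1 encodes a zinc finger transcription factor, and its 3 probe sets did not move alike. Probe set 207943_x_at had signals of 225.2, 317.0 and 346.5 in BAHD1 siRNA cells and 197.2, 211.0 and 253.4 in control siRNA cells. The groups overlapped through BAHD1 siRNA replicate 1, and the log2 fold change was 0.41, with a 95% interval of 0.093 to 0.72 in the intensity-trend fit (limma, adjusted p = 0.133) and of -0.054 to 0.87 in the first fit (adjusted p = 0.325). Without BAHD1 siRNA replicate 1 it was 0.59 (limma, intensity-trend fit, adjusted p = 0.0191). Without any of the other 5 arrays it was not called (adjusted p = 0.0820 to 0.388), with the lowest value, 0.28, without BAHD1 siRNA replicate 3. Probe set 207002_s_at had 412.8, 419.2 and 445.5 in BAHD1 siRNA cells and 401.8, 499.6 and 548.9 in control siRNA cells, a log2 fold change of -0.17 (95% interval -0.39 to 0.050, intensity-trend fit). That value was -0.30 without control siRNA replicate 1 and -0.074 without control siRNA replicate 3. Probe set 209318_x_at had 350.1, 376.2 and 385.3 in BAHD1 siRNA cells and 338.7, 360.2 and 417.9 in control siRNA cells, at -0.0022 (-0.20 to 0.19). Taken within each array, 207002_s_at minus 207943_x_at was 0.55 ± 0.28 in BAHD1 siRNA cells and 1.12 ± 0.11 in control siRNA cells on the log2 scale (SD, n = 3 each, exact permutation p = 0.1), with no overlap. All 3 PLAGL1 pairs were without overlap and none of the 6 GRB10 pairs was. The 3 PLAGL1 differences come from only 3 probe sets and are not separate results. The share of such pairs over all genes was not computed. Adjusted over these 9 pairs, which were compared after the probe set values had been seen, the p for each PLAGL1 pair was 0.3. As the exact p cannot be below 0.1, no pair could have passed at 0.05. The transcripts read by each probe set are not analysed here, and the _x_at suffix marks probes that can also bind related sequences.

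**Figure D2:**
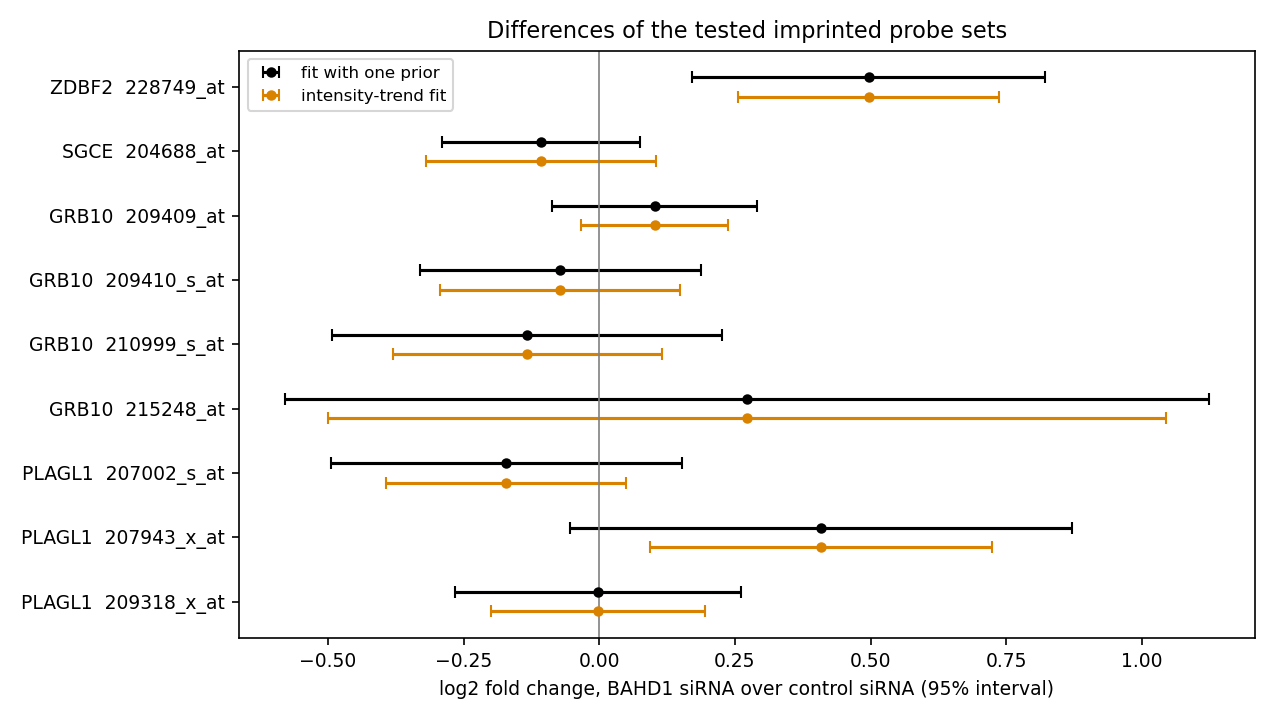
Log2 fold change of BAHD1 siRNA over control siRNA (x axis) with its 95% interval for the 9 tested probe sets, in the fit with a single prior (black) and in the intensity-trend fit (orange). Both ZDBF2 intervals lie above 0, as does the intensity-trend interval of PLAGL1 207943_x_at (0.093 to 0.72); all others span 0.

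The remaining 6 genes were at or near the bottom of the scale. Of their 108 values, 101 were at or below the filter level of 17.9, and they ran from 0.2 to 32.1. Detection calls were not used here, so these signals have no stated background, and they did not enter the limma fits. Of the 18 probe sets 2 had no overlap between groups, both lower in BAHD1 siRNA cells. Among all kept probe sets 25.6% had no overlap and 12.2% were lower without overlap. The share among all probe sets below the filter was not computed. PEG10 had 12.1, 9.1 and 6.8 signal units in BAHD1 siRNA cells and 10.3, 13.5 and 17.2 in control siRNA cells on its brighter probe set, 212092_at. MEST, a hydrolase-fold protein of the endoplasmic reticulum, had 2.7, 8.0 and 4.7 in BAHD1 siRNA cells and 0.6, 6.7 and 1.5 in control siRNA cells. Both genes overlapped between groups.

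At the DLK1-MEG3 locus neither gene reached the filter. DLK1, a Notch-like transmembrane protein, had signals of 2.4, 20.4 and 10.5 in BAHD1 siRNA cells and 11.6, 10.3 and 8.7 in control siRNA cells on 209560_s_at. For MEG3, 4 of 60 values over 10 probe sets exceeded 17.9, and the median over its probe sets was 7.2, 5.65 and 3.7 in the BAHD1 siRNA arrays and 6.6, 5.15 and 2.9 in the control siRNA arrays. Of the 10 probe sets 5 were higher and 5 lower in BAHD1 siRNA cells. In 1 of them, 1558144_at, the groups did not overlap, with 1.5, 2.4 and 0.9 in BAHD1 siRNA cells and 7.3, 10.5 and 9.9 in control siRNA cells (exact permutation p = 0.1), all below the filter. This 1 of 10 stands beside 25.6% without overlap, and 12.2% lower without overlap, among all kept probe sets.

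PEG3, a large zinc finger protein, was also dim. Its probe set 209243_s_at had 0.4, 0.7 and 0.7 in BAHD1 siRNA cells and 2.2, 2.8 and 3.3 in control siRNA cells, which do not overlap but lie close to 0. The other, 209242_at, overlapped, with 4.0, 7.2 and 6.3 in BAHD1 siRNA cells and 3.8, 13.9 and 8.9 in control siRNA cells. A further probe set, 220653_at, is annotated to ZIM2 and PEG3 together and belongs to neither alone; ZIM2 is an imprinted zinc finger gene that shares its first exons with PEG3. It had 22.8, 19.3 and 19.2 in BAHD1 siRNA cells and 10.8, 13.7 and 10.2 in control siRNA cells, a log2 fold change of 0.78. It passed the filter through the BAHD1 siRNA arrays alone and so had to differ; its adjusted p was 0.133 in the first limma fit and 0.313 in the intensity-trend fit. NNAT, a small membrane proteolipid first described in the developing brain, had 20.1, 26.1 and 4.3 in BAHD1 siRNA cells and 2.4, 4.3 and 1.5 in control siRNA cells. Its highest control value equalled its lowest BAHD1 siRNA value (exact permutation p = 0.2).

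**Figure D3:**
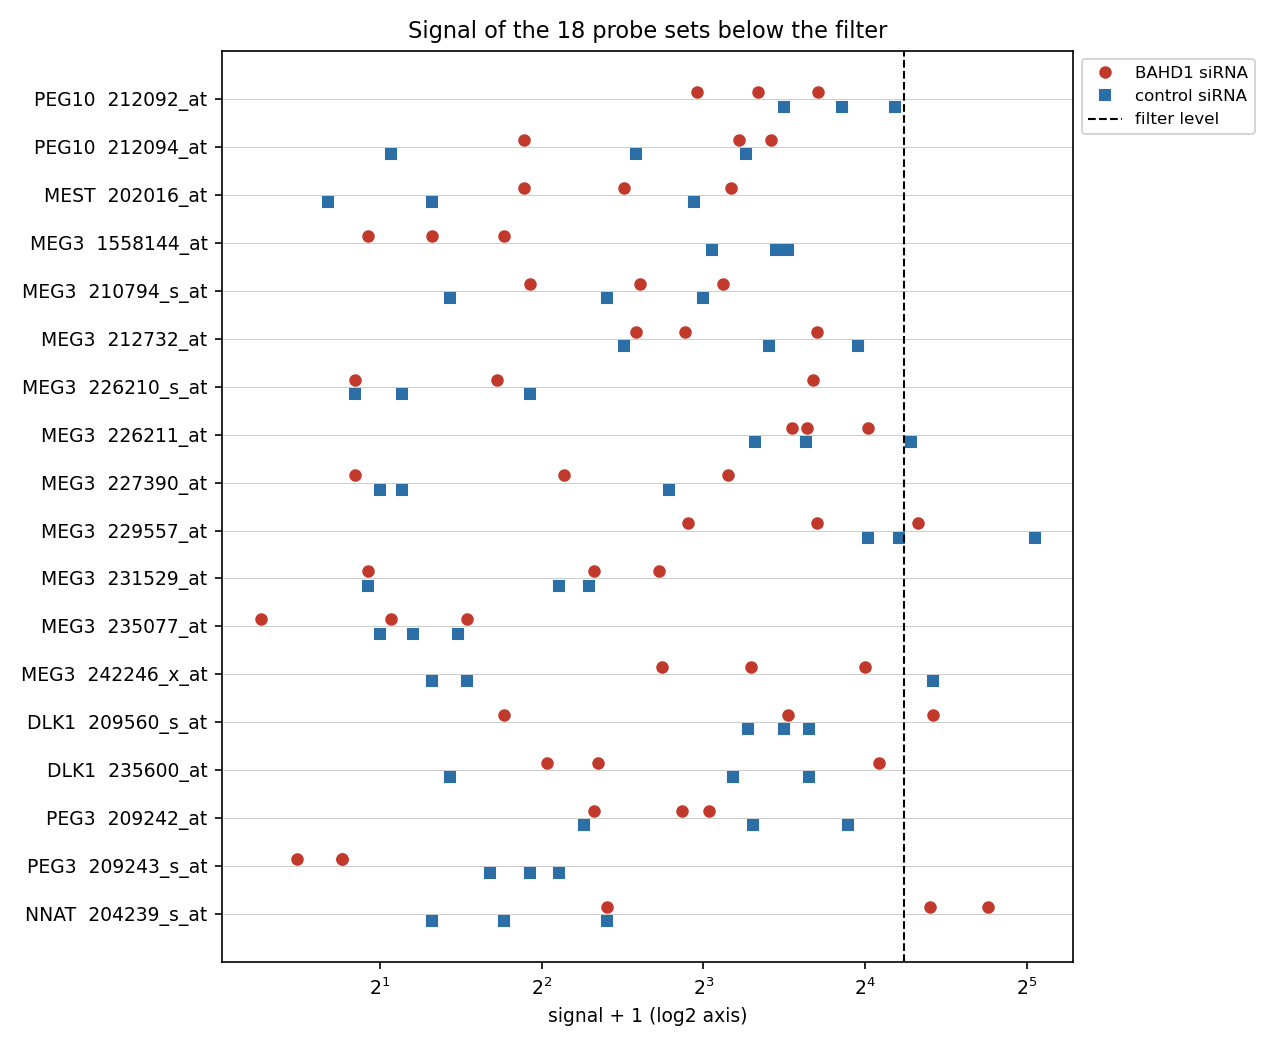
Signal + 1 on a log2 axis for the 18 probe sets of PEG10, MEST, MEG3, DLK1, PEG3 and NNAT, with BAHD1 siRNA arrays as red circles above control siRNA arrays as blue squares; the dashed line is the filter level of 17.9. Of the 108 points 101 lie at or left of the line, and NNAT has 2 BAHD1 siRNA points to its right.

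Among other imprinted genes outside 11p15, 45 genes in all, 35 had a probe set of their own and 19 were measured. RB1 was the only gene of the 19 with a call in the intensity-trend fit (1 of 43 probe sets, against 4.45% of all), and none was called in the first fit. RB1, the retinoblastoma tumour suppressor, had signals of 325.9, 389.6 and 453.2 in BAHD1 siRNA cells and 266.3, 265.0 and 315.8 in control siRNA cells on 203132_at. The log2 fold change was 0.45 (limma, intensity-trend fit, adjusted p = 0.0448), while its second probe set, 211540_s_at, was at -0.12. The call ended without any of 4 arrays (adjusted p = 0.128 to 0.177 without BAHD1 siRNA replicate 2 or 3 or control siRNA replicate 1 or 2). Of the 19 genes 10 were higher and 9 lower, with a median log2 fold change of 0.030, against 0.025 for all measured genes. Of the 43 probe sets 12 had no overlap between groups, against 25.6% of all kept probe sets. CPA4, described below, is among the 12 and had to differ because of the filter. UBE3A, a ubiquitin ligase imprinted in neurons, had probe sets without overlap in both directions: 211285_s_at was at -0.21 (adjusted p = 0.234) and 213128_s_at at 0.32 (adjusted p = 0.0577, both intensity-trend fit). CPA4, a carboxypeptidase gene near MEST, had 19.1, 23.9 and 21.1 in BAHD1 siRNA cells and 14.9, 10.2 and 13.6 in control siRNA cells, and passed the filter through the BAHD1 siRNA arrays alone. NPAP1, a gene of the Prader-Willi region, was at -0.54 (adjusted p = 0.545). NDN, MAGEL2, MKRN3, DIRAS3 and NAP1L5 were among the 16 genes whose own probe sets all stayed below the filter.

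The genes on either side of each imprinted gene were taken as the 5 nearest protein-coding genes per side in RefSeq. These were 80 genes without the members, of which 45 were measured. CPA4 is also among the other imprinted genes above, so the lists are not separate. Of their 95 kept probe sets 30 had no overlap between groups, against 25.6% of all, and 7 were called in the intensity-trend fit, 1 higher and 6 lower, against 4.45% of all probe sets, and 0 in the first fit. The count of 7 fell to 3 without BAHD1 siRNA replicate 3 and to 4 without BAHD1 siRNA replicate 2 or control siRNA replicate 2. Several of the 7 were probe sets of the same gene, PON2 or PHACTR2. Counted by gene on the brightest kept probe set, 12 of the 45 had no overlap, against 28.2% of all measured genes. By the same count 1 gene was called higher and 2 lower in the intensity-trend fit, where 5.52% of all measured genes were called. CPA4 and TGM2, which passed the filter through the BAHD1 siRNA arrays alone, are among the 30 probe sets and 12 genes without overlap. The median log2 fold change of the 45 genes was -0.029, with 19 higher and 26 lower. PON2, a paraoxonase gene that is the fourth protein-coding gene beyond PEG10 on the side away from SGCE, fell in BAHD1 siRNA cells. On 201876_at it had 223.2, 239.4 and 239.9 in BAHD1 siRNA cells and 416.2, 418.1 and 397.1 in control siRNA cells, a log2 fold change of -0.81 with an SE of 0.080 (limma, intensity-trend fit, adjusted p = 0.00159; first fit 0.112). Its second tested probe set, 210830_s_at, was at -0.82, the other one was below the filter, and the values of the first ran from -0.83 to -0.77 with any single array left out. PPP1R9A, between PEG10 and PON2, was at 0.050, and CASD1, on the other side of SGCE, was at -0.049.

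PHACTR2, a phosphatase and actin regulator gene 3 genes from PLAGL1, also fell. On 204048_s_at it had 170.4, 189.9 and 157.4 in BAHD1 siRNA cells and 275.8, 266.3 and 242.8 in control siRNA cells, a log2 fold change of -0.60 (limma, intensity-trend fit, adjusted p = 0.0107; first fit 0.133). Its 4 tested probe sets were lower without overlap, and 3 of them were called; the other one, 244774_at, was below the filter and overlapped. The call of 204048_s_at was kept with any single array left out (adjusted p = 0.0134 to 0.0478, intensity-trend fit), while that of 227947_at was lost without control siRNA replicate 2 or 3 or BAHD1 siRNA replicate 1 or 3, and that of 204049_s_at without any array but control siRNA replicate 1. The genes between it and PLAGL1 include LTV1, at 0.0032 on its brightest probe set. Near NNAT, MANBAL rose by 0.32 and RPN2, a subunit of the oligosaccharyltransferase, was at -0.28 on the called probe set 208689_s_at (adjusted p = 0.0408 for MANBAL and 0.0367 for RPN2, intensity-trend fit). Its other 2 probe sets were at -0.25 and -0.21 and were not called. Both the MANBAL and the RPN2 call were lost when any array but BAHD1 siRNA replicate 1 was left out. TGM2, a transglutaminase gene on the other side of NNAT, had the highest neighbour value, 1.66, from signals of 23.8, 22.9 and 19 in BAHD1 siRNA cells and 9.7, 2.2 and 9.9 in control siRNA cells. It was chosen after its values were seen, passed the filter through the BAHD1 siRNA arrays alone and was not called (adjusted p = 0.149, intensity-trend fit). GNGT1, the fifth gene from SGCE on the side away from PEG10, was at 0.42 (adjusted p = 0.495, intensity-trend fit).

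**Figure D4:**
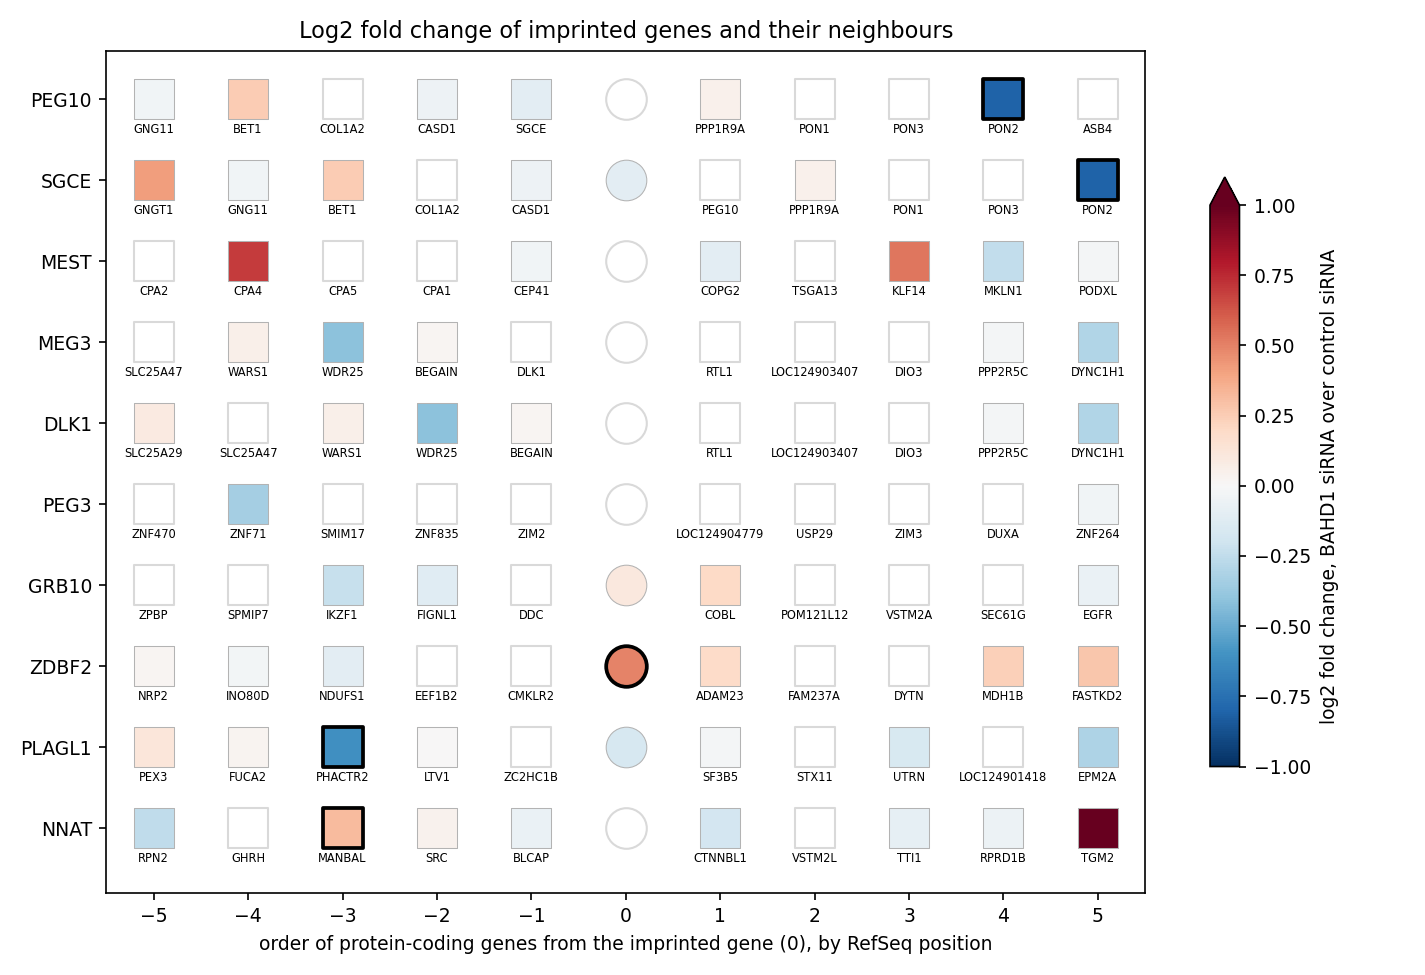
Log2 fold change of BAHD1 siRNA over control siRNA for each imprinted gene (circles at 0) and the 5 protein-coding genes on each side in RefSeq order (squares, x axis); white means not measured and a heavy outline a call of the brightest kept probe set in the intensity-trend fit. Dark blue marks PON2 (-0.81) and PHACTR2 (-0.61) and dark red TGM2 (1.66, beyond the colour scale), and the neighbours of ZDBF2 lie between -0.11 and 0.28.

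Around ZDBF2, none of the 6 measured neighbours was called. ADAM23, a membrane protein gene next to it, was at 0.19, FASTKD2, a mitochondrial RNA-binding protein gene, at 0.28, and NDUFS1, a subunit of respiratory complex I, at -0.11. Around GRB10, COBL, an actin nucleator gene, was at 0.20 and EGFR, the epidermal growth factor receptor, at -0.065. Around the DLK1-MEG3 pair the measured genes ran from -0.41 for WDR25 to 0.087 for SLC25A29. These genes, and PPP1R9A, CASD1 and LTV1 above, were named after their values were seen.

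**Figure D5:**
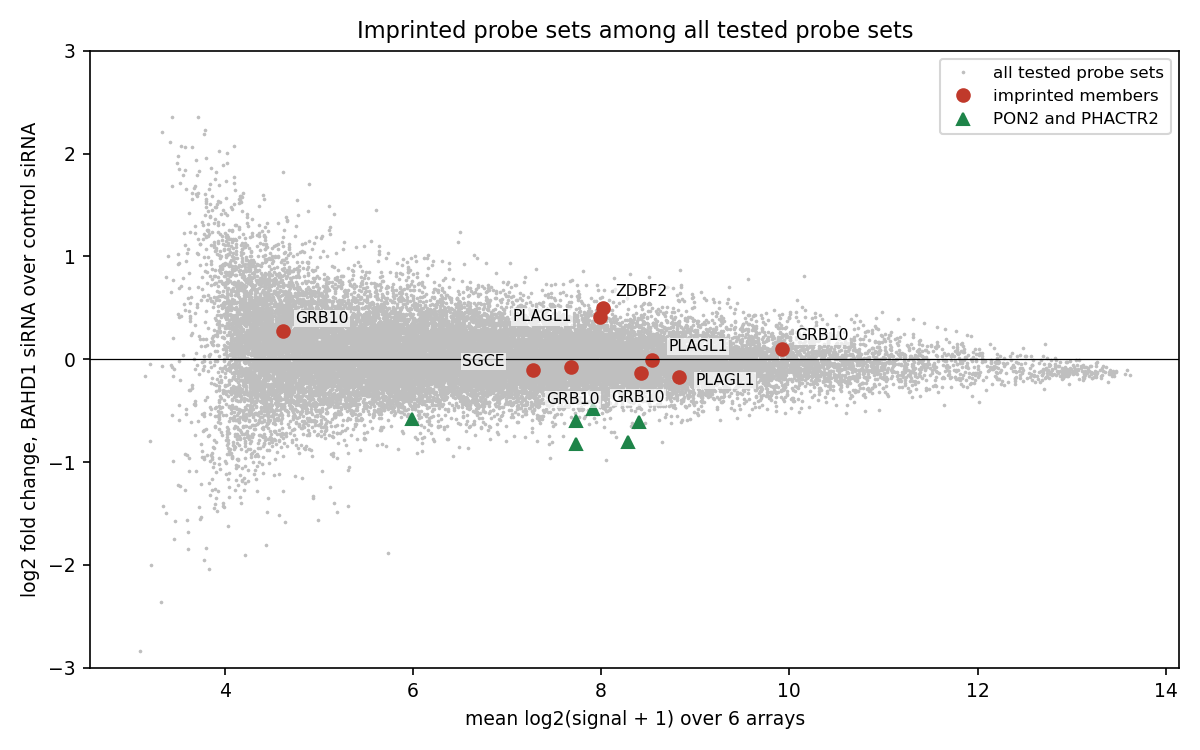
Log2 fold change of BAHD1 siRNA over control siRNA (y axis) against mean log2(signal + 1) over the 6 arrays (x axis) for all 27458 tested probe sets (grey), the 9 imprinted probe sets (red) and the 6 tested ones of PON2 and PHACTR2 (green triangles). ZDBF2 (0.50) and 1 probe set of PLAGL1 (0.41) lie above 0, and the PON2 and PHACTR2 points (-0.82 to -0.48) lie below 0.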

How the data were processed

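The table holds one signal intensity per probe set and array, deposited by the authors on a linear scale; every column has a 2% trimmed mean of 100. GCOS and GCRMA are named in the submitters' processing notes, which do not say which of them made the table. The number of arrays limits the precision, and dim signals are noisy. Samples were grouped by title, and the 62 control probe sets of 54675 were left out. BAHD1 siRNA was compared with control siRNA on log2(signal + 1), which understates changes of dim probe sets, in R 4.3.3 with limma 3.58.1 (lmFit; eBayes with one prior, and with trend and robust), without covariates, after testing on simulated data. The members, lists and tests were chosen with earlier results of these data known. Genes were named from the platform annotation, from probe sets of 1 gene. Symbols of 4 list genes were updated through RefSeq. Named genes were the 10 members, BAHD1, and in each other list those called in either fit plus the 2 smallest p of the first fit per direction; others are said to be chosen afterwards. Same-numbered replicates of both groups did not deviate together (r = 0.010, 0.010 and 0.024), so replicate numbers were not used as pairs. Alternatives were a replicate block, other filters, normalisations, pseudocounts and array weights, and leaving out each array.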

Additional observations from a re-analysis of the deposited data

How the results depend on the processing

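The count of imprinted probe sets called depended on the fit and the filter. In the fit with one prior it was 0, and it was 1 with the stricter filter (75th percentile) or with the intensity-trend fit; it was 0 with any single array left out. In the intensity-trend fit it was 1, and it was 2 with the replicate block, 0 with no filter on dim probe sets, 0 with centred array medians and 0 to 2 with single arrays left out. Under the replicate block the second call was PLAGL1 207943_x_at (adjusted p = 0.0338), and the block moved the neighbours' count of called probe sets to 12, against 7. As the numbers did not pair the samples, this says nothing about a weaker or stronger effect. The median log2 fold change of the measured members, -0.0024, was -0.14 with centred array medians, 0.060 with each gene as the mean of its kept probe sets, -0.14 with the brightest probe set of all 10 genes whether kept or not, and -0.0034 to 0.0084 with single arrays left out. Signs turned for values near 0: GRB10 209409_at was -0.036 with centred array medians, and PLAGL1 209318_x_at 0.015 after quantile normalisation, 0.016 after cyclic loess and 0.012 with array weights. With single arrays left out, GRB10 210999_s_at ran from -0.22 to 0.0019 and PLAGL1 209318_x_at from -0.067 to 0.084. In the other lists the intensity-trend calls ran from 0 to 2 for other imprinted genes and 3 to 15 for neighbours over all alternatives. For factors that act on imprints or DNA methylation they ran from 0 to 6. The ZDBF2 and RB1 calls in the intensity-trend fit were lost with no filter (adjusted p = 0.0673 for ZDBF2 and 0.0984 for RB1) and with centred array medians (0.0893 for ZDBF2 and 0.128 for RB1). The causes were not tested. The PON2 201876_at and PHACTR2 204048_s_at calls in the intensity-trend fit were kept under every alternative run.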

Other observations

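Of 18 factors that act on imprints or DNA methylation, 16 were measured. Of their 38 kept probe sets 4 were called in the intensity-trend fit (3 higher and 1 lower), against 4.45% of all probe sets. None was called in the first fit. DNMT1, the maintenance DNA methyltransferase, had signals of 1079.5, 1095.7 and 1047.0 in BAHD1 siRNA cells and 850.7, 730.9 and 954.2 in control siRNA cells, a log2 fold change of 0.35 (limma, adjusted p = 0.0395). ATRX, a chromatin remodeller, rose by 0.43 on 208861_s_at and the helicase HELLS by 0.39 on 223556_at (adjusted p = 0.0248 for ATRX and 0.0474 for HELLS). The other probe sets of ATRX ran from -0.033 to 0.23 and those of HELLS from -0.22 to 0.37, and none of these was called. TET1, which oxidises methylated cytosine, was lower on 228906_at. It had 310.0, 307.7 and 291.4 there in BAHD1 siRNA cells and 378.5, 363.6 and 385.1 in control siRNA cells. This was a log2 fold change of -0.31 (limma, intensity-trend fit, adjusted p = 0.0431). The other TET1 probe set, 214862_x_at, was not among those called. SMCHD1, a chromatin protein of the inactive X and of imprinted clusters, was at -0.33 on 212577_at (limma, intensity-trend fit, adjusted p = 0.0808) and 0.21 on 212579_at. None of the SMCHD1 probe sets was called. Without control siRNA replicate 1 or 2 or BAHD1 siRNA replicate 2 or 3, 0 of the 38 were called, and 2 and 3 were called without BAHD1 siRNA replicate 1 and control siRNA replicate 3. The TET1 call was lost with any single array left out (adjusted p = 0.0591 to 0.155), and all 4 were lost with no filter on dim probe sets. ZFP57, the zinc finger protein that binds methylated imprints, stayed below the filter.

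Of 16 imprinted genes of 11p15, 9 were measured and 8 of these were higher in BAHD1 siRNA cells, with a median log2 fold change of 0.52. Their values ran from -0.48 to 1.06. None of the 9 was called in the first fit, and 2, both higher, were called in the intensity-trend fit, against 5.52% of all measured genes. Over all measured genes 54.4% were higher, with a median of 0.025, and the 4 measured imprinted genes outside that region had a median of -0.0024. Of the 14 kept probe sets of the 11p15 genes 7 had no overlap between groups, against 25.6% of all. How many of them passed the filter through the BAHD1 siRNA arrays alone is not given here. Of the dimmest class of kept probe sets 60.9% were higher, and the part of this in the 11p15 values was not tested. The difference between the 11p15 genes and the imprinted genes outside that region was not tested.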
